A study of Mus musculus with 20 samples.

Results

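Carcinomas of mouse liver with a conditional knockout of Apc were compared with untreated non-tumour liver of mice that carry the same allele. The comparison uses the 5 arrays titled as carcinoma and the 5 titled as untreated non-tumour liver, 10 of the 20 arrays of the series. All animals were male C57BL/6 mice with the conditional Apc allele, which at 6 weeks of age had 1 intraperitoneal injection of tamoxifen (0.75 mg), the usual inducer of Cre recombinase in such mice. From 1 week later they were kept for 9 months without phenobarbital, and both groups are labelled as untreated. The label of the control group names water, while its protocol names standard chow. The design text of the series speaks of a dose of the carcinogen DEN, and the sample protocols do not, so the initiating treatment is not settled here. Both groups carry the allele, and liver with intact Apc was not analysed here. The Cre driver and the deleted part of Apc are not given in the sources used here. Whether each array stands for its own mouse, and whether a tumour and a control liver shared a mouse, is not stated in the labels, so p-values rest on the spread between arrays, which may be technical.

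Apc is a scaffold of the complex that phosphorylates beta-catenin and marks it for destruction. When Wnt ligands bind Frizzled and Lrp receptors, or when Apc is lost, beta-catenin accumulates, enters the nucleus and switches on genes together with TCF/LEF factors, among them inhibitors that feed back on the pathway. In healthy liver this signal is strong around the central vein, where it maintains glutamine synthesis and part of drug metabolism, and weak around the portal vein, where urea synthesis and gluconeogenesis are placed. Activating mutations of beta-catenin are common in liver cancer.

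Expression was measured with Affymetrix arrays, on which each transcript is read by a set of short probes. Values are log2 expression levels, so a difference of 1 is a 2-fold change, and every difference below is carcinoma minus untreated liver. A probe set passed the test where its p-value, adjusted over all probe sets with 1 gene symbol, was under 0.05 in limma, a linear model that shares information on the spread between probe sets. Of 34945 probe sets, 22201 (63.5%) passed. Each gene is represented by its brightest probe set, and 12266 of 18193 genes (67.4%) passed, 5680 (31.2%) higher and 6586 (36.2%) lower in carcinoma. At least 2-fold differences were found in 3095 genes that rose (17.0%) and 2068 that fell (11.4%). In 9721 genes (53.4%) the values of the groups did not overlap. These shares are the background for every count below. The median difference over all genes was -0.11. Centring each array on its 75th percentile moved it to -0.32 and the share of higher genes among those that passed from 46.3% to 33.5%, and centring on the median moved it to -0.22. Small falls were common among dim genes: with only probe sets that read at least 6 on at least 5 arrays, 8628 of 11109 genes passed and 57.2% of these were higher. Small differences therefore depend on the scaling and on the level of the gene.

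The arrays of the groups were far apart. Of the variance over the 10 arrays, 86.57% lay on the first principal component. Arrays correlated across genes at 0.986 to 0.994 among untreated livers, at 0.955 to 0.988 among carcinomas and at 0.727 to 0.818 between the groups. In 747 genes the SD over the carcinomas was above 1, against 57 genes over the untreated livers. In mitosis and pericentral genes, untreated livers 3 and 4 stood apart from the other 3. Their medians relative to the group mean were 0.42 and 0.35 for mitosis genes and -0.37 and -0.22 for pericentral genes. Without both, the difference of Acta2 became 7.99, of Ccnd1 4.41, of Cyp2c37 -7.43, of Mki67 4.18, of Myl9 7.43 and of Sox4 5.85, each further from 0 than with them. The differences of Glul, Lgr5, Tbx3 and Lhpp, given below, moved toward 0.

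The 4 genes that mark the comparison, Wif1, Bex1, Axin2 and Cyp2f2, separated the groups fully, as did 53.4% of all genes. They were given with the comparison, so their separation is a description and no test. Wif1 is a secreted protein that binds Wnt ligands. It read 3.22, 3.64, 3.13, 3.41 and 3.41 in untreated livers 1 to 5 and 13.74, 13.74, 13.69, 13.70 and 13.78 in carcinomas 1 to 5. It was near the bottom of the scale in all untreated livers and near the top in all carcinomas, with an SD of 0.04 among the carcinomas (n = 5). The difference of 10.37 (SE 0.10, adjusted p = 1.4e-13) was the largest rise of all genes. Bex1, an adaptor protein known from the brain, read 3.45, 3.69, 3.55, 3.66 and 3.34 in untreated livers 1 to 5 and 13.87, 13.89, 13.65, 13.89 and 13.83 in carcinomas 1 to 5. The difference was 10.29 (SE 0.09, adjusted p = 1.4e-13), the next largest rise. Axin2, a scaffold of the destruction complex and a direct target of beta-catenin, read 7.10, 7.19, 6.65, 7.09 and 7.40 in untreated livers 1 to 5 and 11.83, 11.88, 11.93, 12.49 and 11.96 in carcinomas 1 to 5. Untreated livers held a moderate level and carcinomas a high one, with carcinoma 4 the highest, and the difference was 4.93 (SE 0.16, adjusted p = 1.1e-09). Cyp2f2, a P450 enzyme of periportal hepatocytes, read 13.53, 13.50, 13.26, 13.80 and 13.41 in untreated livers 1 to 5 and 4.26, 4.35, 5.28, 5.02 and 4.04 in carcinomas 1 to 5. It went from the top of the scale to near its bottom, and the difference of -8.91 (SE 0.23, adjusted p = 2.4e-10) was the largest fall of all genes.

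**Figure D1:**
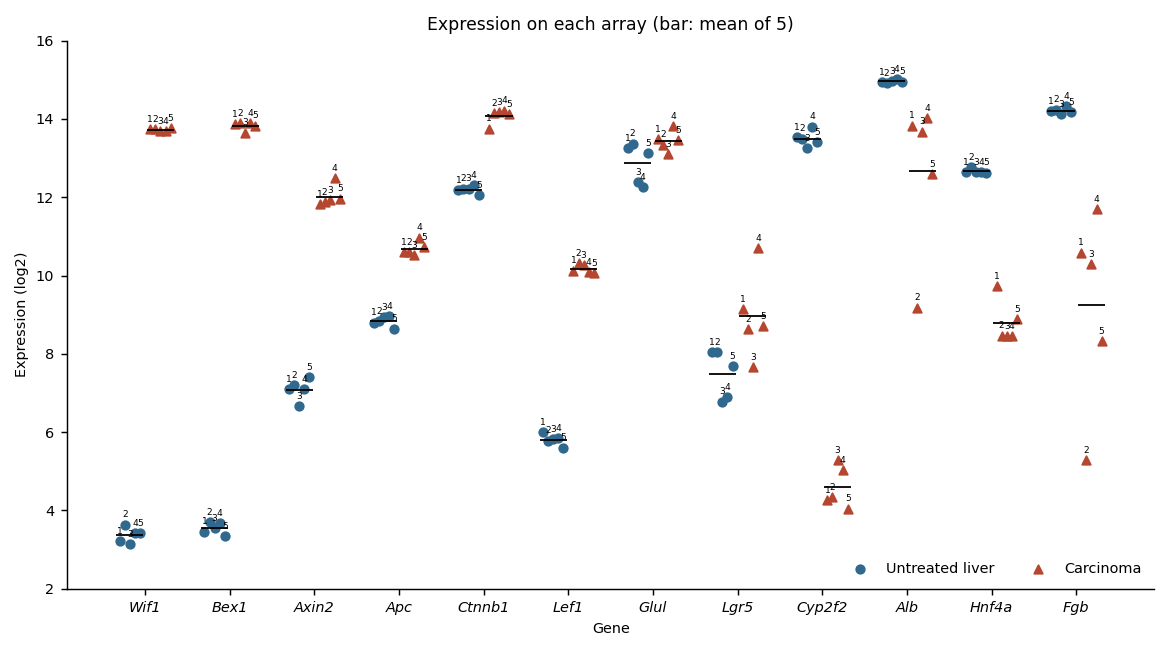
Log2 expression of 12 genes on each array, with untreated livers (circles) beside carcinomas (triangles) and the group mean as a bar, numbers marking the array. Wif1 lies at 3.13 to 3.64 in untreated liver and at 13.69 to 13.78 in carcinoma, Glul overlaps between the groups, and Alb and Fgb are spread widely among carcinomas with carcinoma 2 the lowest.

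Promoters of 4 of the genes that moved are shown for their letters, since TCF/LEF factors and the hepatocyte factor Hnf4a bind known motifs. The 4 were picked as examples and do not show how common a match is. The motif CTTTGAT (TCF/LEF) and the motif CAAAGTCCA (Hnf4a) were searched on both strands in the 250 bases before the start of 14452 genes that have a RefSeq promoter (build GRCm38.p6). Capitals mark the match. A match describes the letters and is no sign that a factor binds there.
Sp5: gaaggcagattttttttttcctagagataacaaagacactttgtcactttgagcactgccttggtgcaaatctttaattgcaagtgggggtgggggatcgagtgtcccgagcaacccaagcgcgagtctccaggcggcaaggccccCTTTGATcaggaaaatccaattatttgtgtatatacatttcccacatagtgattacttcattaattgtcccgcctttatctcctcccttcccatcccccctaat
Tnfrsf19: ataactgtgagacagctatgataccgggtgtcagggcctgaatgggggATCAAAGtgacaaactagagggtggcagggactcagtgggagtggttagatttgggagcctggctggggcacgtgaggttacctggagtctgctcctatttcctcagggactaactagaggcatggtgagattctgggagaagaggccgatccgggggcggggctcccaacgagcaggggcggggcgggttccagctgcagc
Wif1: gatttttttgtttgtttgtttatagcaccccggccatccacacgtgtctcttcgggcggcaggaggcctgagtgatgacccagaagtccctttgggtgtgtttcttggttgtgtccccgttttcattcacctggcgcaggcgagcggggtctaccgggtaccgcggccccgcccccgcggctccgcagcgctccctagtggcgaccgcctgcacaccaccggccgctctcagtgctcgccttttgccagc
Cyp8b1: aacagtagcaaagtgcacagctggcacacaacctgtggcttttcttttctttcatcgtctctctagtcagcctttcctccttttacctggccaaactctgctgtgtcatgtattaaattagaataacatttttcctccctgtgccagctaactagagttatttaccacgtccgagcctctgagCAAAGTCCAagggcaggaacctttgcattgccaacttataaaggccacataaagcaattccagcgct
Sp5, a zinc finger factor, holds the TCF/LEF letters at chr2:70474673-70474922 on the plus strand, and Tnfrsf19, a receptor of the TNF family, holds them on the opposite strand in 1 of its 2 promoters, at chr14:61037988-61038237 on the minus strand. Wif1, at chr10:121033754-121034003 on the plus strand, holds none in this window. Cyp8b1, the enzyme that makes cholic acid, holds the Hnf4a letters at chr9:121916306-121916555 on the minus strand. CTTTGAT was found in 3.15% of all promoters, in 8 of 228 genes (3.51%) that rose at least 16-fold and in 21 of 352 genes (5.97%) that fell at least 16-fold. CAAAGTCCA was found in 0.51% of all promoters, in 1 of 228 of those that rose and in 9 of 352 (2.56%) of those that fell. Among the gene lists described below, CTTTGAT was found in 1 of 11 Wnt feedback genes and 2 of 12 Wnt targets. CAAAGTCCA was found in 0 of 25 plasma protein genes, 0 of 20 genes of the urea cycle and amino acid breakdown and 4 of 27 P450 genes. The TCF/LEF letters were thus not more frequent among the largest rises than among the largest falls in this window.

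The secreted Wnt inhibitors and other feedback genes rose as a group. Of 19 measured, 14 rose, none fell and 5 did not pass, with a median difference of 3.12. After Wif1, the next were Apcdd1, a membrane inhibitor of Wnt signalling (7.69, SE 0.31, adjusted p = 4.8e-09), and Nkd1, which binds Dishevelled (7.39, SE 0.22, adjusted p = 6e-10). Nkd1 read 6.29, 6.5, 5.20, 5.55 and 5.89 in untreated livers 1 to 5 and 13.22, 13.30, 13.21, 13.21 and 13.46 in carcinomas 1 to 5, without overlap. Dkk2 (6.26), Dkk3 (5.95), Tnfrsf19 (5.22), the Wnt deacylase Notum (4.57), Sfrp1 (4.15), and the receptor-removing ligases Znrf3 (3.12) and Rnf43 (3.0) also rose. The group was not uniform: Dkk1 (-0.01), Dkk4 (0.37), Sfrp4 (0.32), Nkd2 (0.07) and Sfrp5 (-0.46) did not pass. Dkk4 was at 8.87 in carcinoma 4 and between 3.73 and 4.12 in the other carcinomas.

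The genes of the destruction complex and of Dishevelled also rose, by less. Of 16 measured, 13 rose, 1 fell (Dvl3, -0.49) and 2 did not pass (Dvl1 and Apc2), and the median difference was 1.43. Besides Axin2, the kinases Csnk1e (4.13) and Csnk1a1 (1.96) rose most. Ctnnb1, the gene of beta-catenin, read 12.18, 12.22, 12.22, 12.32 and 12.05 in untreated livers 1 to 5 and 13.76, 14.16, 14.18, 14.21 and 14.12 in carcinomas 1 to 5, a difference of 1.89 (SE 0.10, adjusted p = 4.2e-08). Apc itself read 8.80, 8.83, 8.94, 8.97 and 8.64 in untreated livers 1 to 5 and 10.60, 10.59, 10.53, 10.97 and 10.73 in carcinomas 1 to 5. All carcinomas lay above all untreated livers, and the difference was 1.85 (SE 0.11, adjusted p = 5.9e-08). Of 4 Apc probe sets, 3 were higher in carcinoma, by 1.85, 2.15 and 0.80, and the fourth, dimmer than the rest, differed by 0.34 (adjusted p = 0.139). Since the deleted part of Apc is not given, they give no check of the knockout.

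Among the TCF/LEF factors and their partners, 9 of 13 rose, 1 fell and 3 did not pass, with a median of 1.38. Lef1 read 6.0, 5.78, 5.81, 5.85 and 5.60 in untreated livers 1 to 5 and 10.13, 10.31, 10.27, 10.09 and 10.07 in carcinomas 1 to 5, a difference of 4.37 (SE 0.09, adjusted p = 8.6e-11) with no overlap. The corepressors Ctbp2 (2.95) and Tle1 (2.11) came next, and Bcl9l, a coactivator, fell by 0.57. Tcf7l1 (0.0) and Tle4 (0.01) did not pass. Tcf7l2, the main TCF factor of hepatocytes, read 7.31, 7.35, 7.21, 7.46 and 7.07 in untreated livers 1 to 5 and 7.69, 7.37, 5.52, 7.67 and 7.70 in carcinomas 1 to 5. Carcinoma 3 was low and the other carcinomas overlapped with or lay just above the untreated range, and the difference of -0.09 (SE 0.37, adjusted p = 0.84) did not pass. Without carcinoma 3 it was 0.33 (adjusted p = 0.0246). Dimmer Tcf7l2 probe sets passed as lower in carcinoma, with -0.45 (adjusted p = 0.016) and -0.49 (adjusted p = 0.00628). A further dimmer one did not pass (-0.32, adjusted p = 0.451).

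Wnt ligands and receptors moved in both directions. Of 23 ligands and R-spondins, 8 rose, 7 fell and 8 did not pass, with a median of 0.09 that turned to -0.12 on centring by the 75th percentile and to -0.02 on centring by the median. Wnt5a (5.74, SE 0.48, adjusted p = 1.2e-06), Wnt10a (4.72) and Wnt6 (4.71) rose most, while Wnt2, which endothelial cells of the liver make, fell most (-2.12, SE 0.25, adjusted p = 2e-05), followed by Wnt8b (-1.24) and Wnt8a (-0.85). Wnt8b (mean 4.78 in untreated liver and 3.54 in carcinoma) and Wnt8a (4.61 and 3.76) were dim in both groups. Wnt5a read 4.92, 4.06, 4.48, 4.23 and 4.40 in untreated livers 1 to 5 and 10.44, 10.43, 8.06, 11.07 and 10.75 in carcinomas 1 to 5. Of 19 receptors and co-receptors, 8 rose, 6 fell and 5 did not pass, with a median of 0.16, and -0.05 on centring by the 75th percentile. Fzd10 (3.88), Ror1 (3.71) and Fzd6 (3.59) rose, and Fzd5 (-3.01), Fzd8 (-1.95) and Fzd4 (-1.80) fell. The co-receptor Lrp6 (-0.09), Fzd3 (0.09), Fzd9 (-0.26), Lgr6 (0.67) and Ror2 (0.16) did not pass.

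Of 17 genes known as Wnt targets outside the pathway, 12 rose, 2 fell and 3 did not pass, with a median of 2.12. Sp5 rose most (5.59, SE 0.35, adjusted p = 1.3e-07), then the ligand Bmp4 (5.0) and the cell cycle gene Ccnd1 (3.78). Ccnd1 read 8.20, 7.87, 9.22, 10.13 and 8.20 in untreated livers 1 to 5 and 12.27, 12.45, 12.77, 12.28 and 12.75 in carcinomas 1 to 5, and untreated livers 3 and 4 were the highest of their group. Myc read 7.61, 6.47, 7.26, 7.93 and 6.93 in untreated livers 1 to 5 and 10.18, 9.21, 7.92, 9.93 and 9.57 in carcinomas 1 to 5. Carcinoma 3 lay within the untreated range, and the difference was 2.12 (SE 0.41, adjusted p = 0.00086). Sox9, a factor of bile duct and progenitor cells (0.19, SE 0.25, adjusted p = 0.52), Fgf9 and Mmp7 did not pass, and Ascl2 (-0.88) and Zcchc12 (-0.50) fell.

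The pericentral genes did not rise together. Of 22 measured, 5 rose, 15 fell and 2 did not pass, with a median of -1.71. The 5 that rose were Axin2, the neutral amino acid transporter Slc1a4 (1.58), Lgr5, Tbx3 and Lhpp (0.82, and 0.68 with adjusted p = 0.0587 without untreated livers 3 and 4). Lgr5, the R-spondin receptor of stem cells and pericentral hepatocytes, read 8.04, 8.05, 6.78, 6.90 and 7.69 in untreated livers 1 to 5 and 9.14, 8.63, 7.65, 10.71 and 8.71 in carcinomas 1 to 5. Carcinoma 4 was the highest and carcinoma 3 lay within the untreated range, and the difference was 1.48 (SE 0.49, adjusted p = 0.0212). It no longer passed without untreated liver 3 (1.30, adjusted p = 0.0531), without untreated liver 4 (1.33, adjusted p = 0.0509) or without both (1.04, adjusted p = 0.141), and the other Lgr5 probe set, a dim one, differed by -0.04. Tbx3, a transcription factor, rose by 1.30 (SE 0.40, adjusted p = 0.0139) and no longer passed without untreated livers 3 and 4 (0.91, adjusted p = 0.102).

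Glul, the gene of glutamine synthetase and the classical mark of active beta-catenin in hepatocytes, read 13.26, 13.37, 12.39, 12.25 and 13.13 in untreated livers 1 to 5 and 13.49, 13.35, 13.11, 13.82 and 13.46 in carcinomas 1 to 5. The groups overlapped and the difference was 0.56 (SE 0.23, adjusted p = 0.0512), just short of the threshold. Untreated livers 3 and 4 were the lowest of their group, and without them the difference was 0.19 (adjusted p = 0.319). It passed in 6 of 21 alternative analyses, with 0.78 (adjusted p = 0.0104) after quantile normalization, and not in the other 15, with 0.35 (adjusted p = 0.182) on centring by the 75th percentile. Its level was high in both groups. The glutamate transporter gene Slc1a2 (-1.04) did not pass either. The pericentral enzymes fell: Cyp2c37 (-6.56), Cyp7a1, which sets the rate of bile acid synthesis (-6.30), Ces1d (-6.12, with -6.84 without carcinoma 1 and -5.44 without carcinoma 2) and Cyp1a2 (-5.14). Cyp2e1, the ethanol-oxidising P450, read 14.51, 14.52, 14.17, 14.16 and 14.54 in untreated livers 1 to 5 and 12.98, 8.44, 11.95, 11.90 and 10.52 in carcinomas 1 to 5, a fall with no overlap (-3.22, SE 0.68, adjusted p = 0.00155) and a wide spread among carcinomas, and -2.54 without carcinoma 2.

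The periportal genes had a lower median than the pericentral genes. Of 25 measured, none rose, 22 fell and 3 did not pass (Atp5a1 0.01, Ctsc -0.31 and Cdh1 -0.93), with a median of -5.86. After Cyp2f2, the uridine phosphorylase Upp2 (-7.59, SE 0.23, adjusted p = 6.8e-10) and the histidine-degrading enzyme Hal (-7.39, SE 0.42, adjusted p = 5.5e-08) fell most. Upp2 read 10.51, 11.13, 11.98, 11.58 and 11.30 in untreated livers 1 to 5 and 3.77, 3.47, 3.72, 3.98 and 3.61 in carcinomas 1 to 5. Pck1 (-6.57) and G6pc (-6.52), enzymes of gluconeogenesis, fell as well, and Pck1 differed by -7.30 without carcinoma 4. Ass1 fell least of those that passed (-1.92).

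**Figure D2:**
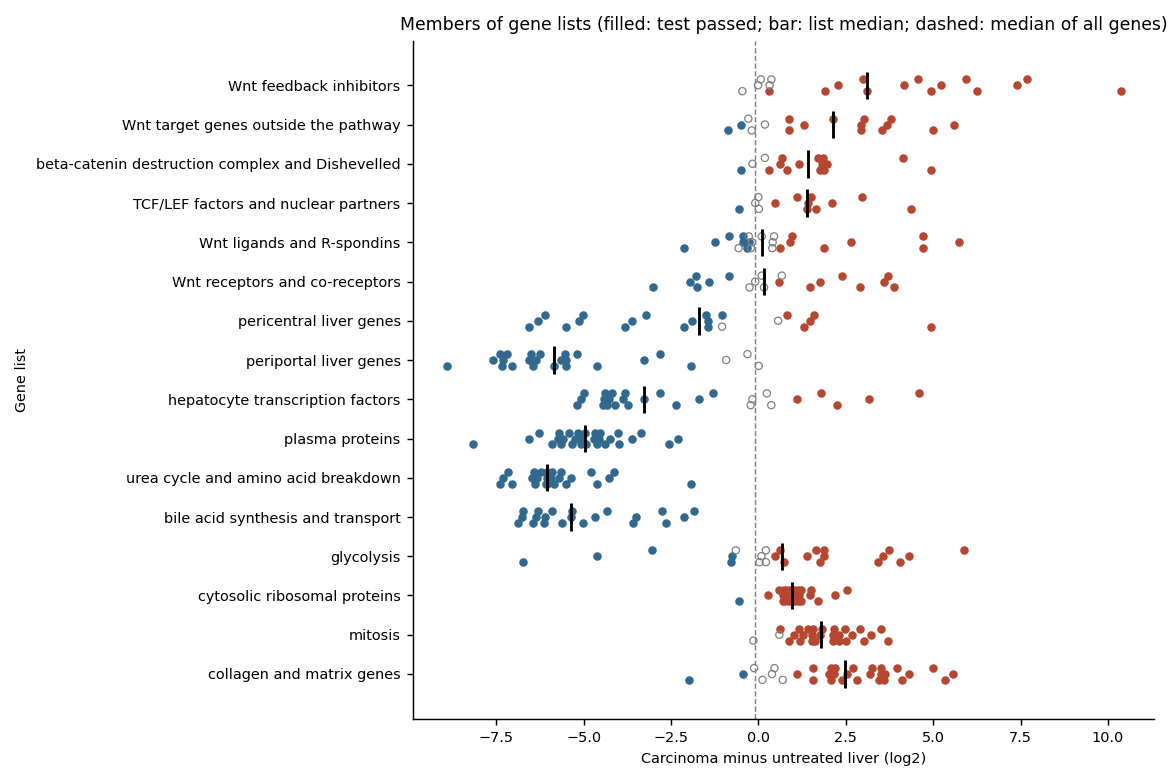
Difference of each measured member of 16 gene lists (points, carcinoma minus untreated liver, log2), with the list median as a bar and the median of all 18193 genes (-0.11) as a dashed line; filled points passed the test. Wnt feedback and destruction complex genes lie mostly to the right of 0, pericentral genes on both sides, and urea cycle, plasma protein and bile acid genes lie entirely to the left.

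Hepatocyte genes fell in every carcinoma, to different depths. All 10 measured hepatocyte markers fell, with a median of -4.75, as did all 29 plasma protein genes (-4.98). In whole tissue, fewer cells of a type and less RNA per cell cannot be told apart. Alb, the gene of albumin, read 14.94, 14.92, 14.98, 15.03 and 14.96 in untreated livers 1 to 5 and 13.83, 9.18, 13.68, 14.03 and 12.59 in carcinomas 1 to 5. Carcinoma 2 was far below the others, which read 12.59 or more, and the difference was -2.30 (SE 0.78, adjusted p = 0.0226). Without carcinoma 2 the difference of Alb was -1.43 (adjusted p = 0.00062). It no longer passed after quantile normalization (-2.02, adjusted p = 0.0505) or without untreated livers 3 and 4 (-2.28, adjusted p = 0.0806). Fgb, the fibrinogen beta chain, read 14.21, 14.24, 14.13, 14.33 and 14.17 in untreated livers 1 to 5 and 10.58, 5.29, 10.29, 11.70 and 8.33 in carcinomas 1 to 5, a difference of -4.98 (SE 0.96, adjusted p = 0.00092), and -3.99 without carcinoma 2. Hamp, the iron hormone hepcidin, fell most of the plasma proteins (-8.17, SE 0.84, adjusted p = 6.8e-06), followed by the complement component C9 (-6.55) and the clotting factor F9 (-6.28). Hamp differed by -9.02 without carcinoma 4 and C9 by -5.96 without carcinoma 2.

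The genes listed as hepatocyte transcription factors did not fall uniformly. Of 27, 18 fell, 5 rose and 4 did not pass, with a median of -3.28. Hnf4a read 12.65, 12.77, 12.64, 12.65 and 12.63 in untreated livers 1 to 5 and 9.73, 8.46, 8.46, 8.46 and 8.88 in carcinomas 1 to 5, a difference of -3.87 (SE 0.22, adjusted p = 6e-08), and Cebpa read 10.79, 10.60, 10.47, 10.52 and 10.74 in untreated livers 1 to 5 and 7.30, 5.40, 6.17, 6.39 and 5.75 in carcinomas 1 to 5, a difference of -4.42 (SE 0.29, adjusted p = 1.6e-07). Onecut2 (-5.19), the nuclear receptor Nr5a2 (-5.08) and the bile acid receptor Nr1h4 (-4.98) fell most. In the other direction, Foxa2, a pioneer factor of endoderm, read 10.16, 9.27, 9.18, 9.49 and 9.15 in untreated livers 1 to 5 and 11.42, 11.47, 11.03, 11.01 and 11.27 in carcinomas 1 to 5 and rose by 1.79 (SE 0.19, adjusted p = 9e-06), while its relatives Foxa1 (-3.74) and Foxa3 (-4.33) fell. Nr2f1 (4.60, SE 0.33, adjusted p = 3.7e-07), Prox1 (3.16), the estrogen receptor gene Esr1 (2.24) and Zhx2 (1.11) also rose. Nr2f1 was dim in untreated liver, at a mean of 4.21. Onecut1 (0.37), Stat5a (-0.22), Stat5b (-0.17) and Bcl6 (0.24) did not pass.

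Nitrogen, bile acid and drug metabolism fell across nearly all their genes. All 25 genes of the urea cycle and amino acid breakdown fell (median -6.04), as did all 21 of bile acid synthesis and transport (median -5.38). Otc, which makes citrulline in the urea cycle, read 13.46, 13.52, 13.40, 13.53 and 13.42 in untreated livers 1 to 5 and 7.08, 3.27, 6.98, 7.83 and 5.64 in carcinomas 1 to 5, with carcinoma 2 the lowest, a difference of -7.31 (SE 0.69, adjusted p = 3.3e-06), and -6.58 without carcinoma 2. Cps1, the entry enzyme of the cycle (-7.04, SE 0.88, adjusted p = 3.2e-05), and Amdhd1, of histidine breakdown (-7.17), fell likewise. Without carcinoma 2 Cps1 differed by -6.36 and without carcinoma 4 by -7.74. Slc10a1, the main bile acid importer, fell by 6.87 (SE 0.52, adjusted p = 5.4e-07), then Akr1d1 (-6.77) and Baat (-6.73). Cyp8b1, whose promoter is printed above, differed by -6.37 (SE 0.43, adjusted p = 2.1e-07). Of 31 P450 genes, 28 fell, none rose and 3 did not pass (Cyp4b1, Cyp2c65 and Cyp3a16), with a median of -5.34. Cyp4a12a (-7.22) and Cyp2a12 (-6.82) fell most after Cyp2f2. Other large falls were Ugt2b1 (-7.55) and Ugt2a3 (-7.07), which attach glucuronic acid, Keg1 (-7.33), Bhmt2 (-7.19), the lysine-degrading enzyme Aass (-7.17), Elovl3 (-7.16), Etnppl (-7.33), Hsd17b13 (-7.19), Ces1e (-7.02), Cyp2c23 (-7.0) and Fabp2 (-6.87). Many of these genes read below 5 in carcinoma, where 25% of all genes read below 4.76, and lie near the floor of the array.

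Lipid genes fell by less, with single isoforms going the other way. Of 25 genes of lipid synthesis, 23 fell, 1 rose and 1 did not pass (Pnpla3), with a median of -2.34. Thrsp (-6.22, and -5.64 without carcinoma 4) and Acacb (-4.66) fell most. Scd2, the desaturase isoform found mainly outside the adult liver, read 7.61, 7.18, 10.12, 12.11 and 6.94 in untreated livers 1 to 5 and 11.49, 12.41, 12.71, 12.30 and 12.38 in carcinomas 1 to 5. Untreated liver 4 lay within the carcinoma range and untreated liver 3 was next, and the difference was 3.47 (SE 0.88, adjusted p = 0.00503). It was 4.30 without untreated liver 4, 5.01 (adjusted p = 1e-06) without both and 1.61 (adjusted p = 0.0131) with the mean of its probe sets. The liver isoform Scd1 fell by 3.23 (SE 0.24, adjusted p = 4.8e-07). Of 21 genes of fatty acid oxidation and ketogenesis, 20 fell and 1 rose, with a median of -1.91. The exception was Cpt1c, the brain isoform of carnitine palmitoyltransferase (4.78, SE 0.15, adjusted p = 7e-10), while the liver isoform Cpt1a fell by 1.85.

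Genes of glycolysis moved in both directions, with isoenzymes among both. Of 24 genes, 14 rose, 5 fell and 5 did not pass, with a median of 0.67. Pkm, the pyruvate kinase of muscle and proliferating cells, read 6.19, 6.11, 6.24, 6.60 and 6.05 in untreated livers 1 to 5 and 12.02, 11.96, 12.39, 12.16 and 12.09 in carcinomas 1 to 5, a difference of 5.89 (SE 0.12, adjusted p = 6e-11). Pklr, the liver pyruvate kinase, read 9.23, 9.63, 9.75, 8.84 and 9.40 in untreated livers 1 to 5 and 4.89, 4.17, 4.78, 5.06 and 4.88 in carcinomas 1 to 5, a difference of -4.62 (SE 0.20, adjusted p = 7.4e-09). The hexokinases Hk2 (4.04) and Hk1 (3.75) and the phosphofructokinase Pfkp (4.31) rose, and the liver glucose transporter Slc2a2 (-6.74, SE 0.61, adjusted p = 2.4e-06) and the lactate transporter Slc16a1 (-3.05) fell. Ldha (0.22), Ldhb (-0.65), Pfkm (0.09), Pgam2 (0.03) and Eno2 (0.21) did not pass.

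Serine synthesis rose at its first steps. Phgdh (4.75, SE 0.32, adjusted p = 2e-07) and Psat1 (4.21, SE 0.20, adjusted p = 1.4e-08), the first and the second enzyme of the route, rose with the glutamine transporter Slc1a5 (2.7), while Psph, the last enzyme (0.37), Aldh1l2 (0.34), Slc7a11 (-0.15), Slc3a2 (0.51) and Asns (-0.14) did not pass. The folate enzymes Aldh1l1 (-5.79), Shmt1 (-3.29) and Mthfd1 (-2.83) fell. Of the 18 genes, 9 rose, 4 fell and 5 did not pass. Of 30 ribosomal protein genes, 29 rose and 1 fell (Rps16, -0.57, whose probe set was dim, at 3.98 ± 0.13 in untreated liver and 3.41 ± 0.10 in carcinoma, SD, n = 5), with a median of 0.95 that stayed between 0.74 and 1.21 under the scalings tried. Rps24 (2.54) and Rpl14 (2.20) rose most. Of 38 genes of the respiratory chain none rose, 26 fell and 12 did not pass, with a median of -0.48. Uqcrfs1 (-1.17) and the succinate dehydrogenase subunit Sdhb (-1.06) fell most.

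Genes of cell division were higher. Of 28 mitosis genes 26 rose and 2 did not pass (Aurka and Kif2c), with a median of 1.78. Mki67, the gene of the proliferation antigen Ki-67, read 5.04, 5.37, 6.98, 6.86 and 5.38 in untreated livers 1 to 5 and 9.02, 9.09, 10.93, 8.84 and 9.37 in carcinomas 1 to 5, a difference of 3.52 (SE 0.48, adjusted p = 6.7e-05). Carcinoma 3 was the highest and untreated livers 3 and 4 were the highest of their group. Top2a (3.72, SE 0.46, adjusted p = 3.1e-05) and Bub1 (3.21) were the other large rises. Of 29 replication genes 21 rose, 3 fell and 5 did not pass (Rrm2 0.89, Cdc45 -0.24, Gins1 0.22, Pola2 0.09, Rfc5 -0.09), with a median of 1.06. Uhrf1 (2.83) and Mcm6 (2.58) rose, whereas Mcm10 (-4.02, SE 0.21, adjusted p = 3.1e-08) and the thymidine kinase Tk1 (-1.77) fell, with Orc1 (-0.54, and -0.23 with adjusted p = 0.0665 for the mean of its probe sets).

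Inhibitors of the cell cycle rose beside its drivers. Of 23 genes of G1, 18 rose, 1 fell and 4 did not pass (Cdkn2c 0.60, Rbl2 0.10, E2f7 0.06, E2f8 0.11), with a median of 1.41. Cdkn1a, the gene of the inhibitor p21, read 7.23, 6.63, 6.93, 8.0 and 6.83 in untreated livers 1 to 5 and 10.80, 11.48, 11.94, 12.06 and 11.75 in carcinomas 1 to 5, a difference of 4.48 (SE 0.29, adjusted p = 1.4e-07). Ccnd2 (4.39, SE 0.33, adjusted p = 5.7e-07) and the pocket protein gene Rbl1 (3.87) rose, as did the inhibitors Cdkn2b (3.18), Cdkn1c (3.0) and Cdkn2a (2.78). Of 19 p53 targets, 11 rose, 4 fell and 4 did not pass (Sesn1 -0.04, Tigar 0.34, Perp -0.11, Aen 0.18). After Cdkn1a, Pmaip1 (4.13) and Phlda3 (3.39) rose most, and the death receptor Fas (-2.85, SE 0.20, adjusted p = 3.2e-07) fell most. Of 22 genes of the Myc family and ribosome biogenesis, 17 rose, 2 fell and 3 did not pass (Mycl 0.81, Bop1 0.20, Odc1 -0.19), with a median of 0.75. Nop56 (1.85) and Ncl (1.35) rose after Myc, and Mycn fell by 0.74 but differed by 0.61 (adjusted p = 0.00892) with the mean of its probe sets.

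**Figure D3:**
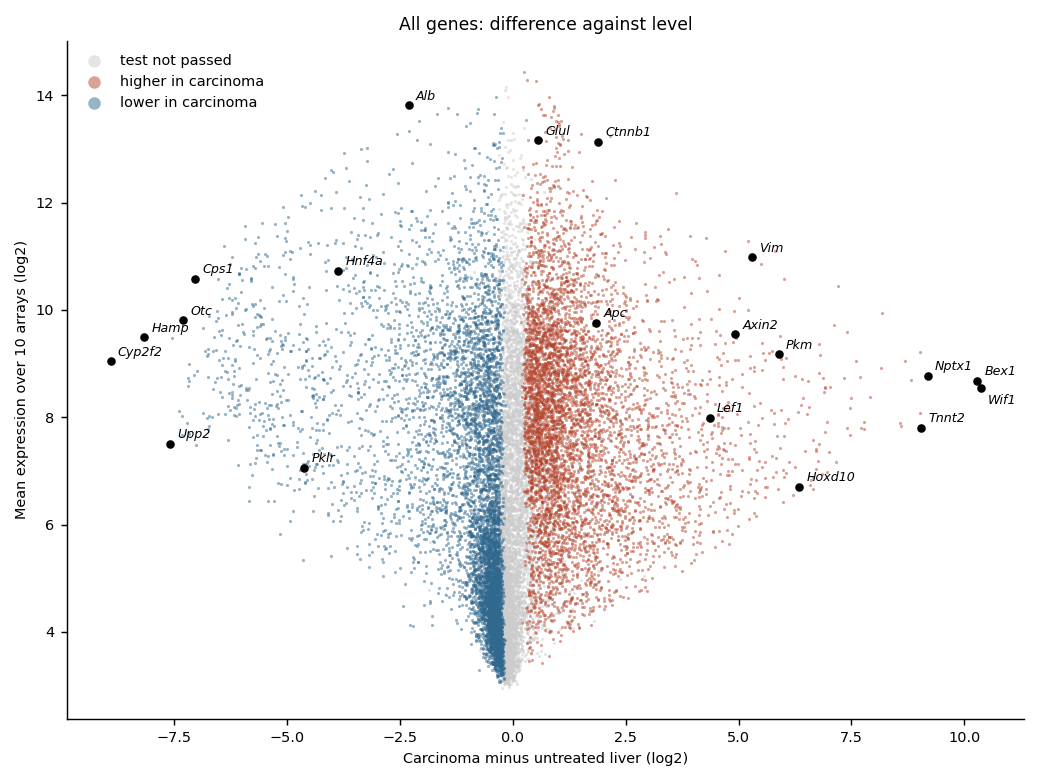
Difference (carcinoma minus untreated liver, log2) against mean level over the 10 arrays for 18193 genes, grey where the test was not passed, with named genes labelled. Wif1 and Bex1 stand at the right edge above 10 and Cyp2f2 at the left edge below -8.

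Genes of tissues other than liver were among the largest rises. Of 110 genes that moved from the lowest 25% of genes in untreated liver (below 4.86) to the highest 25% in carcinoma (above 8.70), Wif1 and Bex1 were the largest rises. The reverse move, from above 8.54 to below 4.76, was made by 58 genes. Nptx1, a secreted pentraxin of synapses, read 4.47, 3.89, 4.18, 4.48 and 3.87 in untreated livers 1 to 5 and 13.63, 13.65, 12.89, 13.06 and 13.60 in carcinomas 1 to 5, a difference of 9.19 (SE 0.19, adjusted p = 5.9e-11). Tnnt2, the troponin T of heart muscle, read 3.13, 3.30, 2.96, 3.92 and 3.11 in untreated livers 1 to 5 and 12.15, 13.67, 11.99, 10.20 and 13.61 in carcinomas 1 to 5, a difference of 9.04 (SE 0.57, adjusted p = 1.2e-07) with carcinoma 4 the lowest. The growth factor Ptn (9.01, SE 0.14, adjusted p = 7.9e-12), the prohormone-processing enzyme Cpe (8.82) and the Notch ligand Dner (8.68) followed. The remaining large rises were Armh4 (9.03), Egfl6 (8.60), Pla2g5 (8.58), S100a6 (8.17), Fxyd6 (8.15), Sbspon (7.91), Slc14a1 (7.78), Clic6 (7.78), Gpr37 (7.72), Plat (7.59), Enah (7.50) and Tbx4 (7.48).

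Many genes of the same classes did not rise. Of 35 neuronal and neuroendocrine genes 13 rose, 3 fell and 19 did not pass, with a median of 0.26. All 13 rises and none of the falls were at least 2-fold. Besides those named, Gad1 (5.99) and Uchl1 (5.27, and 5.94 without carcinoma 4) rose, while the endocrine gene Chga (-0.10) and the synaptic vesicle gene Syp (-0.03) did not pass. Of 25 muscle genes 7 rose, 5 fell and 13 did not pass, and 5 of the rises but none of the falls were at least 2-fold. Ttn (7.16), Tnnt1 (5.88), Myl7 (5.79) and Tnni1 (4.55) rose, while Des (-0.06) and the muscle factor Myod1 (-0.24) did not pass. Of 45 developmental transcription factors 16 rose, 11 fell and 18 did not pass. Tbx4, a factor of the hindlimb and lung, read 3.91, 3.87, 3.74, 3.99 and 4.10 in untreated livers 1 to 5 and 11.29, 11.48, 11.57, 11.16 and 11.51 in carcinomas 1 to 5. Sox2 (6.84, SE 0.61, adjusted p = 2.1e-06), Irx5 (5.99) and Sox4 (5.21) rose most in that list, and Pitx1, a hindlimb factor, rose by 4.96 (SE 0.14, adjusted p = 3.7e-10). Without carcinoma 3 the difference of Sox2 was 7.53. Gata4 (-1.16) fell most. The median of the developmental list was 0.11 and turned to -0.10 on centring by the 75th percentile, to -0.01 on centring by the median and to -0.02 where a gene was the mean of its probe sets.

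The Hox genes, which give position along the body axis, changed in part of their clusters. Of 31 measured, 6 rose, 6 fell and 19 did not pass, with a median of -0.06 that turned to 0.39 with a filter on dim probe sets. The 6 that rose lie in the HoxD cluster (Hoxd10 6.34, Hoxd8 5.47, Hoxd9 5.24, Hoxd3 1.92) and the HoxC cluster (Hoxc8 4.01, Hoxc4 2.07). Hoxd10 read 3.60, 3.34, 3.24, 3.79 and 3.71 in untreated livers 1 to 5 and 9.61, 9.80, 9.91, 10.22 and 9.84 in carcinomas 1 to 5, with no overlap and a difference of 6.34 (SE 0.14, adjusted p = 9.2e-11). Hoxc8 read 3.34, 3.29, 3.19, 3.46 and 3.43 in untreated livers 1 to 5 and 4.53, 8.78, 5.81, 8.73 and 8.89 in carcinomas 1 to 5. Carcinomas 1 and 3 lay below the other carcinomas, with carcinoma 1 the lowest. The difference of Hoxc8 was 4.01 (SE 0.78, adjusted p = 0.00096), and 4.71 without carcinoma 1. No HoxA or HoxB gene rose. The 6 that fell each changed by less than 2-fold, and all lie in the HoxA and HoxB clusters, led by Hoxb5 (-0.76), Hoxb9 (-0.76) and Hoxa9 (-0.40, and -0.19 with adjusted p = 0.36 for the mean of its probe sets). Hoxb5 (mean 4.25 in untreated liver and 3.49 in carcinoma) and Hoxb9 (5.16 and 4.41) were dim, where small falls were common. Hoxa9 was brighter (7.14 and 6.75). Without carcinoma 1 the difference of Hoxc4 was 2.66, and Hoxc4 no longer passed without untreated livers 3 and 4 (1.97, adjusted p = 0.0532).

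**Figure D4:**
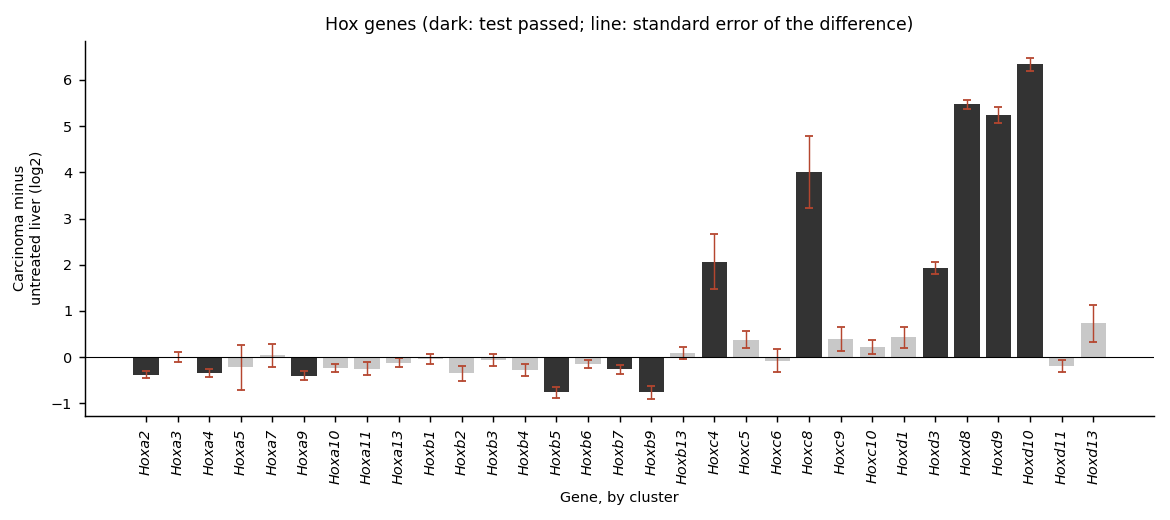
Difference of 31 Hox genes (carcinoma minus untreated liver, log2), bars starting at 0 and ordered by cluster and number, dark where the test was passed, with the standard error as a line. Bars above 1 that passed the test stand only in the HoxC and HoxD clusters, with Hoxd10 the tallest at 6.34.

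Classical fetal liver and liver tumour markers did not rise uniformly. Of 25, 11 rose, 6 fell and 8 did not pass, with a median of -0.05 that changed sign in 7 alternatives, to 2.32 with the filter on dim probe sets and to 0.02 to 0.12 in the other 6. At least 2-fold were 10 of the rises and none of the falls. Cpe and Cd24a (5.73) rose most after Bex1. Afp, the alpha-fetoprotein gene, read 4.73, 5.51, 6.22, 6.48 and 5.55 in untreated livers 1 to 5 and 5.06, 5.19, 5.92, 5.58 and 4.87 in carcinomas 1 to 5, with overlapping groups, and did not pass (-0.38, SE 0.31, adjusted p = 0.308). Igf2, the fetal growth factor, read 5.88, 5.84, 6.22, 5.95 and 5.71 in untreated livers 1 to 5 and 6.28, 6.32, 11.51, 6.48 and 6.17 in carcinomas 1 to 5. It was high in carcinoma 3 alone, and the difference of 1.43 (SE 0.89, adjusted p = 0.179) did not pass, while without carcinoma 3 a difference of 0.39 passed (adjusted p = 0.0134). Of 25 imprinted genes 8 rose, 6 fell and 11 did not pass. Grb10 (4.36), Ndn (3.62) and Cdkn1c rose most, and Slc22a18 fell most (-4.30). Of 19 genes of DNA methylation and Polycomb 11 rose, none fell and 8 did not pass. Ezh2 (2.71) and Dnmt3a (2.50) rose beside Uhrf1, and Dnmt3b (-0.27) did not pass.

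Genes of cell junctions and keratins moved in both directions. Of 27 junction and keratin genes 6 rose, 11 fell and 10 did not pass, with a median of -0.51. The connexins Gjb2 (-5.69, SE 0.26, adjusted p = 9.7e-09) and Gjb1 (-5.16) and the claudin Cldn2 (-5.02) fell most. Krt23 (6.41, SE 0.30, adjusted p = 1.4e-08), Krt7 (5.24) and the connexin Gja1 (2.80) rose, and the hepatocyte keratin gene Krt8 fell by 2.93. Cdh1, the gene of E-cadherin, read 8.60, 9.11, 8.63, 10.61 and 7.98 in untreated livers 1 to 5 and 7.23, 9.20, 6.11, 9.26 and 8.50 in carcinomas 1 to 5 and did not pass (-0.93, SE 0.65, adjusted p = 0.228). Krt19 (0.35, SE 0.49, adjusted p = 0.543) did not pass, with carcinoma 4 at 7.72 and the others between 4.55 and 5.52. Epcam read 5.98, 5.03, 5.22, 6.28 and 5.06 in untreated livers 1 to 5 and 7.13, 6.15, 8.46, 10.47 and 5.74 in carcinomas 1 to 5. The groups overlapped, carcinoma 4 was highest, and the difference of 2.08 (SE 0.77, adjusted p = 0.034) no longer passed without carcinoma 3 (1.86, adjusted p = 0.0677), without untreated liver 2, 3 or 5 (1.96 to 2.0, adjusted p = 0.066 to 0.0709), without untreated livers 3 and 4 (2.23, adjusted p = 0.0769) or with array weights (1.57, adjusted p = 0.054), and was 1.36 without carcinoma 4 (adjusted p = 0.0388). Of 12 cholangiocyte genes 3 rose, 2 fell, both by less than 2-fold, and 7 did not pass.

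Mesenchymal and matrix genes were higher. Of 27 mesenchymal genes 18 rose, 3 fell and 6 did not pass, with a median of 1.79. Vim, the gene of vimentin, read 7.77, 7.87, 8.88, 9.04 and 8.10 in untreated livers 1 to 5 and 13.70, 13.49, 13.56, 13.60 and 13.78 in carcinomas 1 to 5, a difference of 5.29 (SE 0.24, adjusted p = 9.6e-09). S100a6 rose most, followed by the smooth muscle actin Acta2 (7.20, SE 0.52, adjusted p = 3.6e-07) and Myl9 (6.81). Fn1 (-1.43) and Cdh2 (-1.83), which hepatocytes also express, fell. Snai1 (-0.28), Snai2 (-0.21) and Twist1 (-0.28) did not pass. Of 32 collagen and matrix genes 25 rose, 2 fell and 5 did not pass (Col9a1 0.46, Col14a1 -0.12, Eln 0.39, Dcn 0.70, Hspg2 0.12), with a median of 2.47. Col11a1 (5.58, SE 0.41, adjusted p = 4.5e-07), Fbln1 (5.33) and Vcan (5.0) rose most, and Col18a1 fell most (-1.99). Of 22 matrix proteases and inhibitors 13 rose, 2 fell and 7 did not pass. The plasminogen activator Plat, which read 5.27, 4.96, 5.51, 5.51 and 4.97 in untreated livers 1 to 5 and 12.67, 12.49, 12.35, 13.60 and 13.06 in carcinomas 1 to 5, Htra1 (7.12) and Timp2 (5.02) rose most. Of 15 stellate cell genes 4 rose, 4 fell and 7 did not pass, with Cygb (3.96) up and Reln (-1.96) down.

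Genes of the sinusoidal endothelium and of other vessels mostly fell. Of 15 genes of sinusoidal endothelium 12 fell, 1 rose and 2 did not pass (Bmp2 1.16, Rspo3 -0.57), with a median of -2.12. Stab2, their hyaluronan receptor, read 8.90, 8.93, 8.77, 8.49 and 9.06 in untreated livers 1 to 5 and 5.49, 4.55, 4.83, 5.29 and 5.01 in carcinomas 1 to 5, a difference of -3.80 (SE 0.18, adjusted p = 1.2e-08), and Clec4g fell by 5.22. Of 18 general endothelial genes 10 fell, 2 rose and 6 did not pass. Flt1 (3.51, SE 0.40, adjusted p = 1.6e-05) and Cd34 (3.19) rose, Kdr (-2.31) and Tek (-1.96) fell, and Pecam1 (-0.45, SE 0.18, adjusted p = 0.051) did not pass.

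Macrophage genes split. Of 22, 11 rose, 8 fell and 3 did not pass (Csf1r 0.28, Adgre1 0.55, Mpeg1 0.25), with a median of 0.66. Clec4f, a lectin found on Kupffer cells, read 9.66, 8.93, 9.24, 9.66 and 8.85 in untreated livers 1 to 5 and 6.53, 5.36, 5.52, 5.59 and 5.20 in carcinomas 1 to 5, a difference of -3.63 (SE 0.26, adjusted p = 3e-07). Cd5l (-4.02), Cd163 (-2.98), Vsig4 (-2.89) and Timd4 (-1.96) fell with it. Gpnmb (3.11, SE 0.74, adjusted p = 0.00364), the lysozyme gene Lyz2 (2.03) and the complement gene C1qa (1.39) rose, and without carcinoma 2 the difference of Gpnmb was 3.74. Of 9 genes of MHC class II presentation 7 rose and 2 did not pass (H2-Oa -0.02, Ciita 0.07), led by H2-Aa (2.68, SE 0.40, adjusted p = 0.00014). Ptprc, the gene of the leukocyte antigen CD45, read 8.15, 7.79, 8.65, 9.0 and 7.52 in untreated livers 1 to 5 and 10.20, 8.30, 8.72, 9.80 and 8.98 in carcinomas 1 to 5 and differed by 0.98 (SE 0.38, adjusted p = 0.0431), but no longer passed in 11 of the alternative analyses, among them those without carcinoma 1, 4 or 5 or without untreated liver 1, 2 or 5 (0.73 to 1.03, adjusted p = 0.0571 to 0.103). Of 20 genes of T, NK and B cells 2 rose, 10 fell and 8 did not pass, and Ighm fell most (-2.28). Only 1 of the 20 fell at least 2-fold, against 11.4% of all genes. Of 13 neutrophil and mast cell genes 1 rose (Kit, 3.07), 8 fell and 4 did not pass (S100a8 -0.95, S100a9 -0.35, Ltf -0.16, Csf3r -0.31). None of the 13 fell at least 2-fold. Of 8 erythroid and blood genes 1 rose (Pf4, 2.28), 5 fell and 2 did not pass (Slc4a1 0.13, Ppbp 0.10), with Alas2 the lowest (-4.01, and -4.85 without carcinoma 3). The part that changes in cell makeup play in the other results was not tested.

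Stress and growth factor genes were mixed. Of 21 interferon genes 4 rose, 11 fell and 6 did not pass, with Usp18 (3.53) up and Ifi27 (-3.12) down. Of 21 hypoxia genes 12 rose, 3 fell and 6 did not pass, with P4ha2 (3.52) and Ankrd37 (3.10) up after Hk2 and Epas1 down (-2.19). Of 24 genes of ER stress 2 rose, 14 fell and 8 did not pass, the 2 being Atf3 (3.49) and Ddit4 (2.60). Of 34 growth factors and receptors 15 rose, 11 fell and 8 did not pass. Tgfb2 (5.26, SE 0.24, adjusted p = 9.5e-09) and Bmp4 rose after Ptn, while Egfr (-4.93, SE 0.53, adjusted p = 9.3e-06), the Fgf21 co-receptor Klb (-4.65) and Fgfr4 (-4.09), receptors of hepatocytes, fell. Of 14 iron genes 11 fell, 2 did not pass (Tfrc 0.0, Fth1 -0.18) and Slc11a2 rose (0.50, but -0.22 and adjusted p = 0.0499 with the mean of its probe sets), with Tfr2 (-4.87) and Hjv (-4.48), which act upstream of hepcidin, among the falls.

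The carcinomas differed from each other widely in hepatocyte genes. Relative to the untreated mean, the median of the hepatocyte markers was -3.36, -8.08, -4.07, -3.54 and -5.64 in carcinomas 1 to 5, and that of the plasma proteins -3.63, -7.64, -4.31, -3.61 and -5.88. Carcinoma 2 was the lowest in both and carcinoma 5 the next. The Wnt feedback median was 3.10, 2.98, 2.74, 3.81 and 3.16 over the same arrays, and the ribosomal median 1.03, 0.95, 0.88, 1.0 and 0.94. The mitosis median was 1.24, 1.83, 3.12, 1.09 and 1.91, the highest in carcinoma 3. Hepatocyte medians therefore ranged over 4.72 units among carcinomas, Wnt feedback medians over 1.07.

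**Figure D5:**
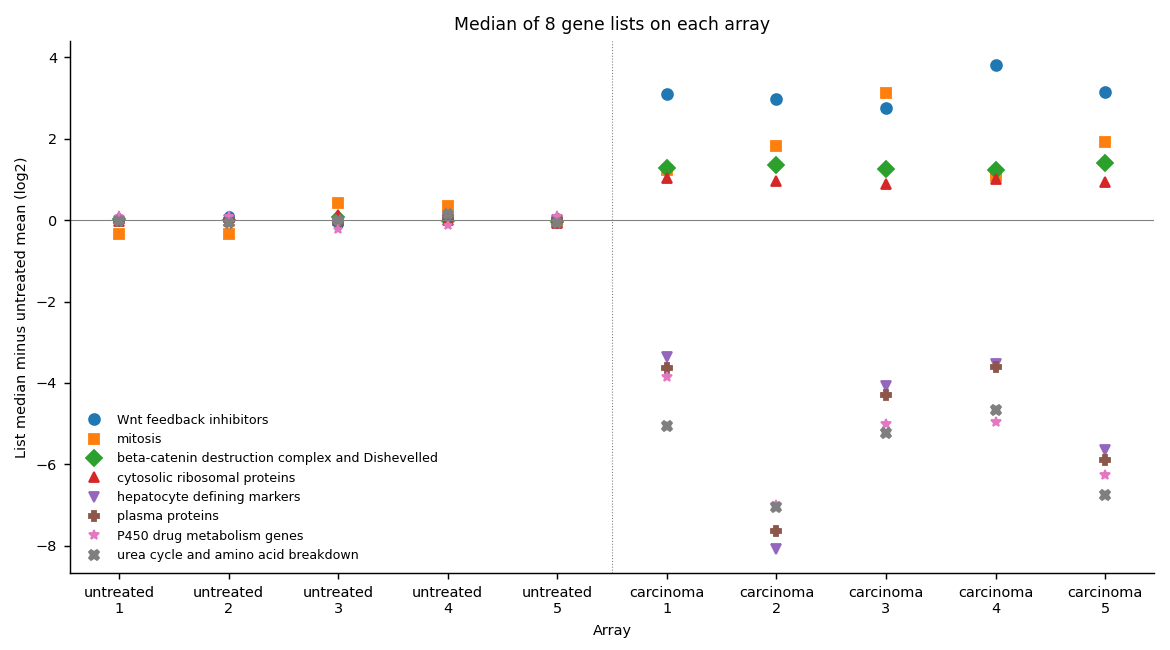
Median difference from the untreated mean (log2) of 8 gene lists on each of the 10 arrays. Untreated livers stay between -0.35 and 0.42. Ribosomal medians are level over the carcinomas, at 0.88 to 1.03, and Wnt feedback medians lie between 2.74 and 3.81. Hepatocyte, plasma protein and P450 medians are lowest in carcinoma 2.

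By SD over the carcinomas, among genes with a mean of at least 7 there, the 10 most variable were Myl7, Fgg, Dsc3, Fga, Itih3, Apoc3, Mmp12, Mug1, Fgb and Tdo2. Of these, 7 are genes of hepatocytes. Fgg read 14.23, 14.28, 14.16, 14.27 and 14.18 in untreated livers 1 to 5 and 11.09, 4.96, 11.30, 12.20 and 8.50 in carcinomas 1 to 5. Of the other 3, Mmp12 was lowest in carcinoma 2, as Fgg was, while Myl7 and Dsc3 followed another order. Myl7, an atrial myosin light chain, read 4.70, 5.38, 5.21, 4.67 and 4.90 in untreated livers 1 to 5 and 13.51, 13.08, 5.16, 9.24 and 12.82 in carcinomas 1 to 5, and Dsc3, a desmosomal cadherin, read 4.29, 4.31, 3.95, 3.92 and 3.83 in untreated livers 1 to 5 and 10.72, 9.99, 4.03, 7.45 and 7.09 in carcinomas 1 to 5. Both were lowest in carcinoma 3, at the untreated level. Without carcinoma 3 the difference of Myl7 went from 5.79 to 7.19 and that of Dsc3 from 3.80 to 4.75. Without carcinoma 2 that of Fgg went from -4.62 to -3.45, and those of Fga, Itih3, Apoc3, Mug1 and Tdo2 also moved nearer to 0. Mmp12, a macrophage elastase, read 4.23, 4.63, 5.45, 5.39 and 4.36 in untreated livers 1 to 5 and 10.31, 4.58, 8.07, 9.18 and 4.90 in carcinomas 1 to 5, high in carcinomas 1, 3 and 4. Its difference of 2.60 (SE 1.0, adjusted p = 0.0409) no longer passed in 11 of the alternative analyses, among them those without carcinoma 1, 3 or 4 or without any single untreated liver (1.87 to 2.75, adjusted p = 0.0542 to 0.0905), and was 3.30 without carcinoma 2 and 3.22 without carcinoma 5.

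Single arrays also departed from the other 4 of their group. A departure was counted where an array lay outside the range of the others and at least 3 units from their median. Carcinomas 1 to 5 had 22, 6, 32, 34 and 2 such genes above and 9, 89, 25, 18 and 1 below, and the untreated livers 0, 2, 1, 7 and 0 above and 0, 0, 0, 2 and 0 below. The genes named here were chosen after their values were seen. In carcinoma 3 the calcitonin receptor gene Calcr read 12.53, against 3.19 to 7.14 in the other carcinomas, and Map2, of neuronal microtubules, read 8.68 against 3.64 to 4.15. In carcinoma 4 the calcitonin gene-related peptide gene Calcb read 9.62 against 3.72 to 4.62, and Trp63, a factor of squamous epithelium, read 9.02 against 3.98 to 4.72. In untreated liver 4 the trefoil factor gene Tff3 read 12.30, against 6.13 to 8.55 in the other untreated livers.

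Different probe sets of a gene did not always give the same direction. Of 9010 genes with several probe sets, 1025 (11.4%) had probe sets that passed the test in opposite directions. In 928 of them the chosen probe set passed and another passed the other way. Il1rap, a chain of the interleukin 1 receptor, gave -6.22 with its brightest probe set and 1.59 with another (adjusted p = 6.3e-08 and 2.2e-05). Ahnak gave 4.60 and -2.24, and Epb41l5 gave -4.24 and 1.96. A gene's direction in this comparison is therefore that of its brightest probe set.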

How the data were processed

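RNA of snap-frozen liver tissue was measured on Affymetrix arrays (per the labels' protocols). Each deposited value is the log2 expression of 1 probe set on 1 array, made by the authors with RMA per the submitters' processing notes (version not given in the sources used here). RMA is meant to make arrays alike and compresses differences of dim probe sets. Over the probe sets with 1 gene symbol the groups still differed. Array medians were at most 5.95 in untreated livers and at least 6.00 in carcinomas. Upper quartiles were at most 7.94 in untreated livers and at least 8.10 in carcinomas. For arrays there is no read depth: precision is limited by their number. Of 45037 probe sets, 34945 had 1 gene symbol, 932 had several and 9160 had none and are not named. Of these, 34741 matched RefSeq (GRCm38.p6) by Entrez number, and their symbols were already the same.

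Groups came from the array titles. All 34945 probe sets of the 10 arrays were fitted together with limma 3.58.1 in R 4.3.3 (lmFit, eBayes, both directions, 8 residual and 3.02 prior degrees of freedom), with Benjamini-Hochberg adjustment over them, and the fit was tested on simulated data. A gene is its probe set with the highest mean, leaving out _x_at sets where another exists. Members and the 50 gene lists, which share some genes, were chosen with earlier results of these data known, and lists have no test. Named genes were a panel, the 20 largest rises and falls without overlap (gene models passed over), up to 3 members per list and direction, list members that did not pass where 5 or fewer, the 10 most variable among carcinomas and genes with opposed probe sets; others are said to be chosen later or illustrate a count. As alternatives served a filter on dim probe sets, trend and robust settings, 3 scalings, array weights, the replicate number as a block, all 4 groups, other probe set rules, and arrays left out. Scripts ran in Python 3.11.15 (pandas 2.3.3, figures in matplotlib 3.10.9).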

Additional observations from a re-analysis of the deposited data

Results flagged for a closer look

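For 54 of 692 groups of 5 values (7.8%), the highest or lowest array lay so far from the rest that its gap to the nearest array exceeded 0.71 of the group's whole range. Chance flags about 1 in 20 groups of independent, normally distributed values. The genes here share the same arrays and some were named for their spread, so the flagged share is no test for an excess. Values are log2 levels, each followed by the range of the other 4 arrays of its group. Map2, Calcb and Trp63 were named in the first place for the departure of 1 array.

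Carcinoma 3 was set apart most often, 20 times. It was above the other carcinomas for Mki67 (10.93, the others 8.84 to 9.37), Sfrp4 (8.11, the others 6.34 to 6.83), Mthfd1 (8.98, the others 8.53 to 8.64), Igf2 (11.51, the others 6.17 to 6.48), Slc4a1 (6.41, the others 4.12 to 4.21), Alas2 (9.42, the others 5.15 to 5.38) and Map2 (8.68, the others 3.64 to 4.15). It was below them for Acta2 (12.72, the others 14.14 to 14.51), Myl9 (10.44, the others 12.77 to 13.43), Bex1 (13.65, the others 13.83 to 13.89), Csnk1a1 (12.10, the others 12.43 to 12.52), Tcf7l2 (5.52, the others 7.37 to 7.70), Wnt5a (8.06, the others 10.43 to 11.07), Fzd10 (9.83, the others 10.44 to 10.59), Psat1 (8.21, the others 8.99 to 9.26), Rpl14 (7.78, the others 8.30 to 8.50), Armh4 (10.47, the others 12.99 to 13.36), Sox2 (7.60, the others 10.72 to 11.62), Grb10 (9.46, the others 11.09 to 11.61) and Rspo3 (5.77, the others 6.65 to 7.0). Among the genes of carcinoma 3 are the smooth muscle genes Acta2 and Myl9 and the fetal growth factor Igf2.

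Carcinoma 4 was set apart 17 times. It was high for Axin2 (12.49, the others 11.83 to 11.96), Dkk4 (8.87, the others 3.73 to 4.12), Tle4 (9.37, the others 8.04 to 8.38), Lgr6 (7.43, the others 4.13 to 4.52), Tbx3 (11.46, the others 9.32 to 9.69), Stat5a (8.07, the others 6.52 to 6.95), Slc3a2 (10.58, the others 8.44 to 8.85), Rps16 (3.59, the others 3.35 to 3.40), Gja1 (11.15, the others 8.99 to 9.39), Bmp2 (12.52, the others 9.34 to 10.18), Timd4 (4.11, the others 3.91 to 3.96), Calcb (9.62, the others 3.72 to 4.62) and Trp63 (9.02, the others 3.98 to 4.72). It was low for Onecut1 (7.52, the others 8.87 to 9.39), Dner (12.82, the others 13.44 to 13.61), Uchl1 (6.81, the others 9.54 to 10.64) and Col11a1 (7.69, the others 9.51 to 10.20). Carcinoma 1 was high for Keg1 (5.37, the others 3.48 to 3.94) and low for Ctnnb1 (13.76, the others 14.12 to 14.21) and Ror2 (4.64, the others 5.13 to 5.32). Carcinoma 2 was low for Epas1 (8.97, the others 9.45 to 9.65).

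Among untreated livers, number 4 was high for Sfrp1 (5.95, the others 3.91 to 4.33), Sox9 (7.41, the others 6.03 to 6.34), Slc22a18 (10.90, the others 10.40 to 10.51), Htra1 (7.16, the others 5.70 to 6.12), Usp18 (8.30, the others 6.96 to 7.31) and Itih3 (13.21, the others 12.79 to 12.86) and low for Kif2c (6.15, the others 6.34 to 6.41). Untreated liver 3 was low for Tfr2 (11.57, the others 11.79 to 11.89) and Mug1 (13.03, the others 13.56 to 13.75). Untreated liver 1 was high for S100a9 (7.37, the others 6.30 to 6.50) and Ankrd37 (4.96, the others 4.36 to 4.46). Untreated liver 2 was high for Hnf4a (12.77, the others 12.63 to 12.65) and low for Apcdd1 (4.65, the others 4.93 to 5.01). What sets these arrays apart was not tested.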

How the results depend on the processing

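Of 341 genes named, 278 kept their call under each of the 21 alternatives that gave them a value, and 50 of the 341 had none under the filter on dim probe sets. The number of genes past the test was 12266, and 11510 to 12179 with 1 array left out. With the filter on dim probe sets it was 8628 of fewer genes tested, with 3697 lower genes in place of 6586 and 14214 probe sets past the test in place of 22201. Other counts of genes past the test, higher, lower or at least 2-fold changed stayed within 1.5 times. Deviations from the group mean correlated at -0.03 to 0.05 between arrays of the same number. The untreated liver of the same number correlated best for carcinomas 1, 2 and 4, but not for 3 and 5. Whether samples share a mouse cannot be decided from correlations this weak. With the replicate number as a block 11719 genes passed. Tcf7l2 turned to 0.33 without carcinoma 3. With the mean of all probe sets, Atp5a1 turned to -0.37, Mycn to 0.61 and Slc11a2 to -0.22, and the cause was not tested. Dim genes lie near the floor of the array, where small falls were frequent.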
